A study of Mus musculus with 143 samples.

Results

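The 45 genes described here encode core spliceosome components and SR proteins. They are the protein-coding mouse genes whose symbols start with Snrp (12 genes), Sf3a (3), Sf3b (6), Prpf (13) or Srsf (11), out of 55740 gene IDs in the count files, and 3 other matching names that are pseudogenes or not protein-coding were left out. They were followed in oocytes that lack DIS3, EXOSC10 or both, the ribonucleases of the nuclear RNA exosome, which degrades and trims RNA in the nucleus. Poly(A) sequencing of single cells gave 6 groups at 3 stages, with controls (ctr, n = 8 at each stage) beside Dis3 conditional knockout (Dis3 cKO, n = 15 at GV and 16 at GV3h and MII). The stages were the fully grown oocyte with its germinal vesicle (GV), the same after 3 h in culture (GV3h), and the egg at metaphase II, taken after ovulation (MII). RiboMinus libraries, from which ribosomal RNA is removed, came from 6 groups of 8 oocytes: 2 of adult GV oocytes (ctr and Dis3 cKO) and 4 of postnatal day 20 (p20), namely ctr, Dis3 cKO, Exosc10 cKO and double knockout (dcKO). Oocytes were cultured in M2 medium, eggs came from superovulated females, and CRISPR/Cas9 was used to make the mutant mice. The alleles, the Cre driver, the age of the adults and the animal each oocyte came from are not given in the sources used here.

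The spliceosome removes introns from pre-mRNA and is built on each intron from small nuclear ribonucleoproteins (snRNPs), each holding a U-rich RNA. Snrp genes encode the Sm ring shared by most snRNPs and proteins of the individual U1 and U2 particles, Sf3a and Sf3b genes encode the U2 complexes that settle on the branch point, and Prpf genes encode mostly proteins of the U4/U6.U5 tri-snRNP and splicing factors that work beside U1. Srsf genes encode SR proteins, which bind exons and recruit the machinery, and several of them control their own mRNA through exons that lead to decay. A growing oocyte stores transcripts, a fully grown GV oocyte is nearly silent, and during maturation to MII stored mRNAs are degraded or gain poly(A) tails without transcription, so that a poly(A) count at MII reads tail length as well as amount.

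Promoter sequence was available in a RefSeq table (assembly GRCm38.p6) for 39 of the 45 genes, as 50 windows of 300 bases. The 120 bases upstream of the start site are printed for 4 members that changed in several knockout comparisons, because these show the short motifs that were counted over all windows. Capitals mark matches on either strand to the ETS core CCGGAAG, the GC box GGGCGG, the CCAAT box or the short NRF1 core TGCGCA. The runs lie at chr12:4817488-4817607 on the plus strand for Sf3b6, chr19:5295458-5295577 on the minus strand for Sf3b2, chr3:108911730-108911849 on the minus strand for Prpf38b and chr12:65036214-65036333 on the plus strand for Prpf39, all outside the annotated gene.
Sf3b6: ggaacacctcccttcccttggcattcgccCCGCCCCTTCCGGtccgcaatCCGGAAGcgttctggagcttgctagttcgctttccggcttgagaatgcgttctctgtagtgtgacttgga
Sf3b2: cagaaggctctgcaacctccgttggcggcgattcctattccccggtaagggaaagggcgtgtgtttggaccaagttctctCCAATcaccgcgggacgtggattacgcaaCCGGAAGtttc
Prpf38b: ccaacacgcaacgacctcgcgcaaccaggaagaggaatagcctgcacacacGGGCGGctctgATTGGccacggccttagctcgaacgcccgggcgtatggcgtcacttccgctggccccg
Prpf39: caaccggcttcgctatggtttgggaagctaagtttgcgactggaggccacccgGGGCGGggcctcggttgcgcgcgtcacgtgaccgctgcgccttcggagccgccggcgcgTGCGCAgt

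The ETS core was found in 42% of the members' windows (18 genes) and in 11.56% of all 21263 windows of the same length. The short NRF1 core, searched after the longer NRF1 motif (GCGCA directly followed by TGCGC), was in 30% of the members' windows against 9.74%. The longer motif itself was in 2% against 1.331%, the YY1 motif AAGATGGCG in 4% against 1.834%, GGGCGG in 56% against 46.2%, CCAAT in 38% against 38.19% and TATAAA in 10% against 12.6%. The members' windows also held more CG dinucleotides (median 24 against 13), with a median GC content of 59% against 56.33%. Counts of motifs that contain CG may follow that content, and no comparison with windows of like CG content was made. These matches describe the letters in the windows and were not tested.

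The libraries held 4843964 to 15412200 gene counts in poly(A) and 8492102 to 35429028 in RiboMinus sequencing. Dis3 averaged 9.70 to 15.9 CPM (counts scaled to 1000000 per library) in the control groups and 0.760 to 2.88 CPM in the groups labelled Dis3 cKO or dcKO, and Exosc10 averaged 117 ± 12 CPM in p20 controls, 3.13 ± 3.35 in Exosc10 cKO and 7.26 ± 4.48 in dcKO (SD, n = 8 each). All 10 oocyte markers had a median of at least 1 CPM in every group, with summed levels of 7756 to 26940 CPM. A list of 10 granulosa cell markers summed to 21.4 to 142 CPM over the libraries, 3 to 7 of its genes had a median under 1 CPM in each group, and 4 were at 0 in every MII Dis3 cKO library. A list of 4 blood cell markers summed to at most 7.43 CPM in a library. The granulosa sum had a lower median in Dis3 cKO than in control eggs (42.0 against 89.3 CPM), at GV (47.7 against 76.5), at GV3h (32.2 against 54.5), in adult oocytes (40.5 against 48.8) and in dcKO than in p20 control oocytes (39.4 against 67.0). In the single p20 knockouts it was above the control, at 73.8 in Dis3 cKO and 69.7 in Exosc10 cKO. The part of the granulosa sum in the results below was not tested. Synthetic ERCC RNAs were counted in both assays, and scaling to them in place of the gene counts moved the median log2 change of all genes in the knockout comparisons to -0.23 at GV, 0.04 at GV3h, 0.52 at MII, -0.52 in adult GV, -0.31 in p20 Dis3 cKO, -0.00 in p20 Exosc10 cKO and -0.08 in dcKO. Changes below are relative to the other genes (TMM scaling) unless ERCC scaling is named. P-values measure the spread between single oocytes, which may share animals.

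All members except Srsf12 passed the filter on low counts and were tested in every comparison. Srsf12, an SR protein gene with restricted expression, averaged at most 0.27 CPM in a group and was at 0 in most libraries. The 45 genes together made up 3721 ± 227 CPM of control GV oocytes (SD, n = 8), 3604 ± 189 of Dis3 cKO GV oocytes (n = 15), 3726 ± 167 against 3243 ± 221 at GV3h, 5327 ± 219 against 5178 ± 358 at MII, 4301 ± 249 against 3995 ± 376 in adult RiboMinus oocytes and 3695 ± 270 in p20 controls against 3183 ± 134 in dcKO.

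Calls used an edgeR quasi-likelihood test with Benjamini-Hochberg adjustment over all genes, at 0.05. Shares of all genes, here and below, are those under TMM scaling and are not given for ERCC scaling. Member counts under ERCC scaling thus have no background beside them, and that scaling also moved the median of all genes, as given above. In GV oocytes without Dis3, 2 of the 44 tested members were higher and 5 lower, where 13.6% of all genes were called higher and 8.33% lower (1 and 6 members under ERCC scaling). At GV3h, 6 were higher and 10 lower, against 22.9% and 15.7% of all genes (4 and 5 under ERCC scaling). At MII, 12 were higher and 4 lower, against 27.3% and 14.8% (25 and 1 under ERCC scaling). In adult RiboMinus oocytes, 7 were higher and 5 lower, against 15.7% and 12.4% (1 and 19 under ERCC scaling). With the adult counts summed per title tag, 2 sums against 2, edgeR called 0 members (3 at an unadjusted p under 0.05) and 0 of all genes. Among p20 oocytes, which share 1 control group, Dis3 cKO gave 0 calls (3.61% and 3.76% of genes; 5 members had an unadjusted p under 0.05, and DESeq2 called 1), Exosc10 cKO gave 1 higher and 2 lower (3.95% and 3.5%; 0 and 0 under ERCC scaling), and dcKO gave 10 higher and 10 lower (26.6% and 27.1%). The members' shares were thus near or below the background in most comparisons, and the median log2 change of the 44 stood at 0.01 at GV, -0.03 at GV3h, 0.15 at MII, 0.12 in adult, 0.01 in p20 Dis3 cKO, 0.05 in Exosc10 cKO and -0.01 in dcKO, beside 0.04, 0.07, 0.16, 0.03, 0.00, 0.01 and -0.01 for all genes.

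**Figure D1:**
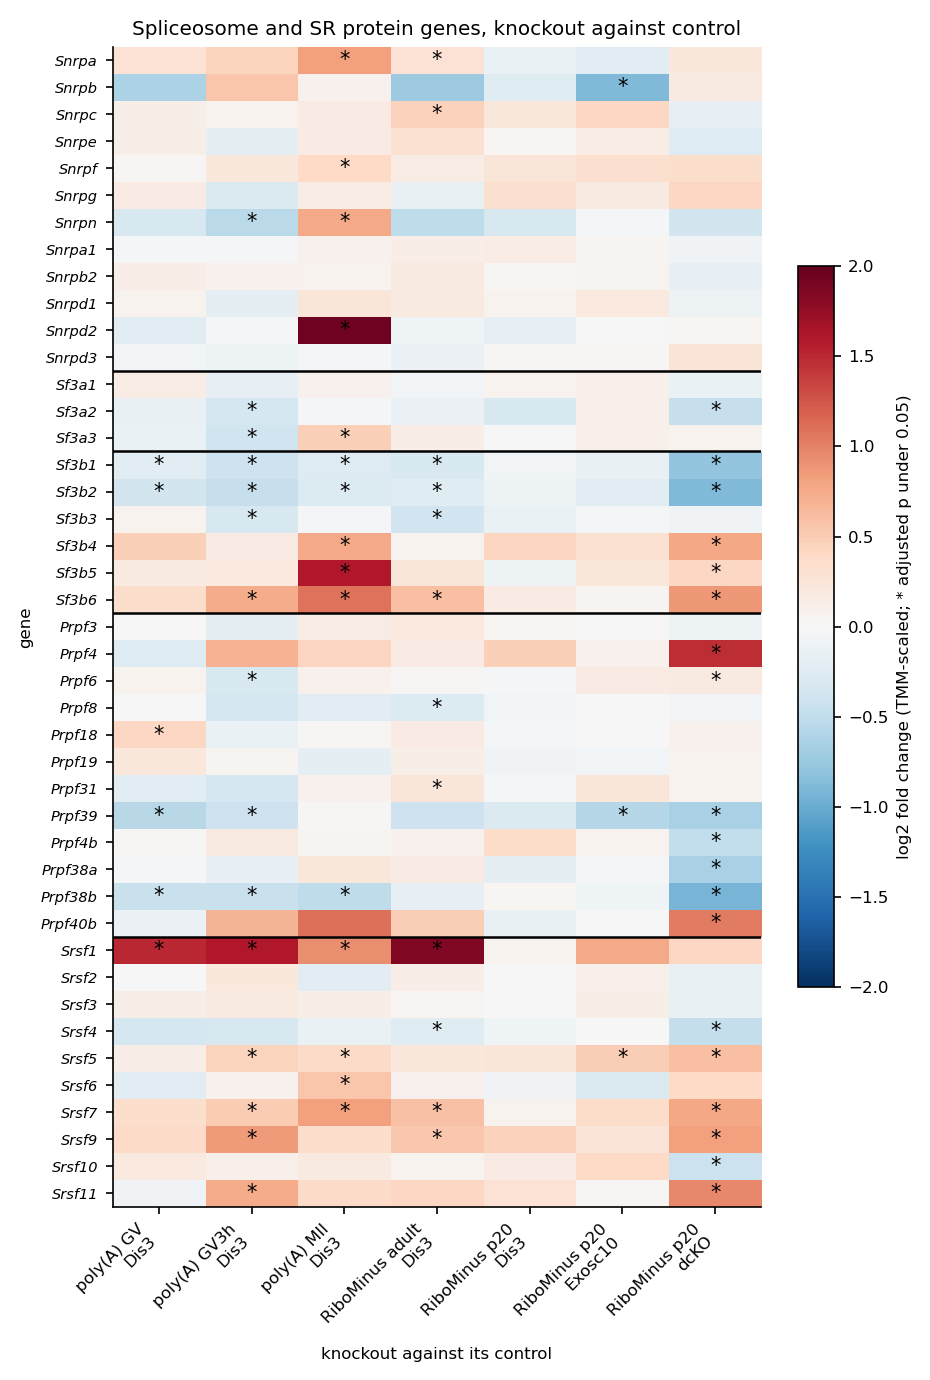
Log2 change of the members in the 7 knockout comparisons (columns), grouped by gene family (rows), with red for higher and blue for lower in the knockout and a star where edgeR called the change at an adjusted p of 0.05. Srsf1 is red in the 4 Dis3 cKO comparisons on fully grown oocytes or eggs, and Sf3b1, Sf3b2 and Prpf38b are blue at GV, GV3h, MII and in dcKO.

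By family, of the 10 tested Srsf genes, 1, 5 and 4 were higher at GV, GV3h and MII, 3 in adult oocytes and 4 in dcKO, and lower calls were 0, 0, 0, 1 and 2. Of the 13 Prpf genes, 3, 4 and 2 were lower at GV, GV3h and MII, 1 in adult oocytes and 5 in dcKO, with 1, 0, 0, 1 and 3 higher. Of the 6 Sf3b genes, 2, 3, 2, 3 and 2 were lower and 0, 1, 3, 1 and 3 higher in the same order. Of the 12 Snrp genes, 0, 0, 4, 2 and 0 were higher and 0, 1, 0, 0 and 0 lower, and the 3 Sf3a genes gave 2 lower calls at GV3h, neither of which passed under ERCC scaling, 1 higher at MII and 1 lower in dcKO. The background shares are those given above for each comparison (at MII 27.3% higher and 14.8% lower), and the difference between families was not tested.

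Srsf1, the founding SR protein, which acts in constitutive and alternative splicing, was the member with the largest rise in 3 of the Dis3 cKO comparisons. In control GV oocytes its lowest, median and highest library had 1.72, 2.98 and 4.20 CPM, and in Dis3 cKO 2.88, 8.74 and 14.2 CPM. All but 1 of the 15 knockout oocytes lay above every control. The change was 1.51 on the log2 scale (SE 0.25, edgeR adjusted p = 2.05e-06), or 1.22 scaled to ERCC. After 3 h of culture the controls ran from 1.14 over 2.38 to 4.24 CPM and the knockouts from 3.97 over 6.78 to 13.1, with 15 of 16 above every control. That change was 1.60 (SE 0.25, edgeR adjusted p = 2.7e-07). In MII eggs the 2 groups overlapped, with 0.497, 2.0 and 3.95 CPM in controls and 2.26, 3.81 and 8.38 CPM in knockouts. The change was 0.93 (SE 0.24, edgeR adjusted p = 0.00131), and the difference between the MII and GV effects, -0.58 (SE 0.33), did not pass (edgeR adjusted p = 0.26).

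In adult RiboMinus oocytes, made with random primers, Srsf1 ran from 2.44 over 3.79 to 5.26 CPM in controls and from 5.82 over 11.8 to 21.8 CPM in Dis3 cKO. The groups did not overlap. The change was 1.86 (SE 0.29, edgeR adjusted p = 0.000115), or 1.38 scaled to ERCC. The titles carry 2 tags per group that may mark animals, and the knockout oocytes of tag AM1713 averaged 18.6 ± 4.31 CPM and those of AM1757 7.84 ± 2.33 (SD, n = 4 each). With counts summed per tag the value was 1.79 and did not pass (edgeR adjusted p = 0.157).

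At p20 the Srsf1 mean was 3.14 ± 1.21 CPM in controls, 3.26 ± 1.00 in Dis3 cKO, 5.28 ± 1.59 in Exosc10 cKO and 4.14 ± 0.729 in dcKO (SD, n = 8 each). None of the 3 changes passed: 0.06 (SE 0.25), 0.75 (SE 0.24, edgeR adjusted p = 0.0507) and 0.42 (SE 0.24). The Dis3 effect in adult GV oocytes exceeded that at p20 by 1.77 (SE 0.36, edgeR adjusted p = 0.000665), the 1 member called in this interaction (0 lower), where 5.34% of all genes were called higher and 3.98% lower. Age and library making cannot be told apart in that contrast, and with counts summed per tag edgeR called 0 members (2 at an unadjusted p under 0.05).

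**Figure D2:**
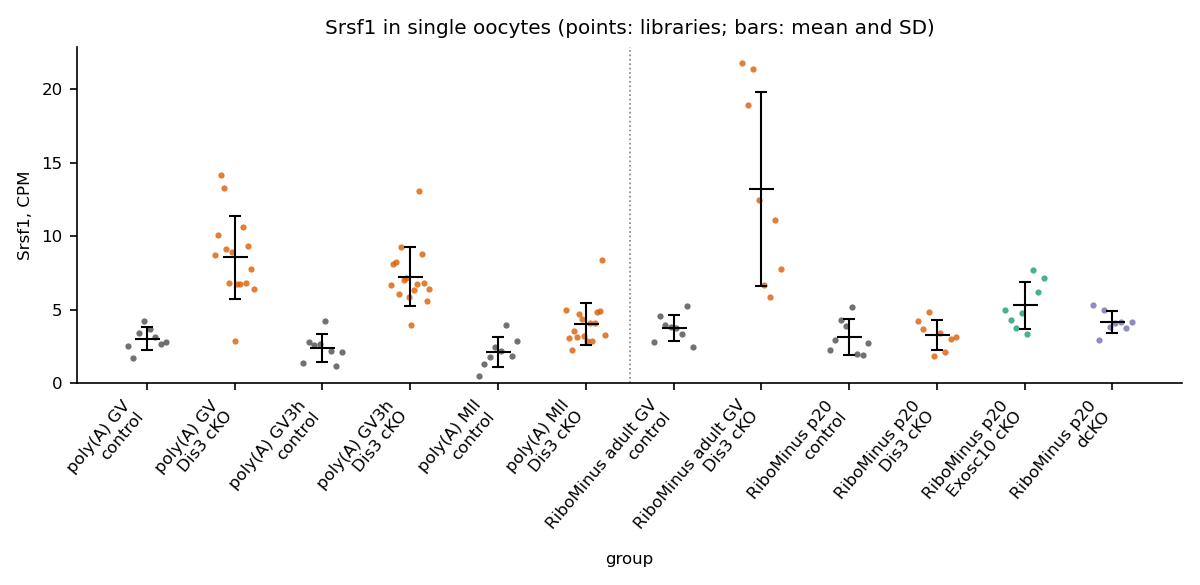
Srsf1 in every library, in CPM, for the 6 poly(A) groups and the 6 RiboMinus groups, with each point 1 oocyte and bars for the mean and SD of a group. Dis3 cKO oocytes lie above nearly every control at GV, GV3h and adult GV, overlap controls at MII, and overlap controls in all 3 knockouts at p20.

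Other SR genes also rose. Srsf7, an SR protein with a zinc knuckle that binds exon sequences and takes part in mRNA export, rose in 4 of the 7: by 0.50 at GV3h (SE 0.15), 0.82 at MII (SE 0.15, edgeR adjusted p = 7.63e-06), 0.59 in adult oocytes (SE 0.16, 0.08 under ERCC scaling) and 0.77 in dcKO (SE 0.18). In MII eggs its controls ran from 43.5 over 63.2 to 116 CPM and its knockouts from 69.2 over 120 to 167. The ranges overlap mainly through 1 control egg. In p20 oocytes it ran from 8.78 over 12.2 to 13.1 CPM in controls and from 14.8 over 17.2 to 31.9 in dcKO, without overlap. Srsf5, an SR protein that binds exonic enhancers, rose by 0.45 at GV3h (SE 0.15), 0.38 at MII (SE 0.15), 0.60 in dcKO (SE 0.12) and 0.50 in Exosc10 cKO (SE 0.12, edgeR adjusted p = 0.00922), where it was the 1 member that rose. The MII value was 0.33 without Dis3 cKO egg 15 (edgeR adjusted p = 0.0589). Its p20 levels were 18.3 ± 2.18 CPM in controls, 25.8 ± 2.61 in Exosc10 cKO and 27.6 ± 6.03 in dcKO.

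Srsf11, an SR-related protein, was called higher at GV3h and in dcKO but not at GV. It stood at 32 ± 12 CPM in control and 30.5 ± 7.04 in Dis3 cKO GV oocytes (-0.07, SE 0.16), and at GV3h it ran from 14.2 over 26.0 to 32.9 CPM in controls and from 23.0 over 42.1 to 58.3 in knockouts. That rise was 0.74 (SE 0.17, edgeR adjusted p = 0.000242), and the GV3h effect exceeded the GV effect by 0.81 (edgeR adjusted p = 0.0426). That difference did not pass with a replicate block (0.79, edgeR adjusted p = 0.0677) or under ERCC scaling (1.07, edgeR adjusted p = 0.0867). In dcKO it rose by 0.96 (SE 0.13, edgeR adjusted p = 2.97e-07), from 44.4, 54.1 and 74.1 CPM in controls to 76.0, 107 and 138 CPM, with no overlap. Srsf9, a small SR protein related to Srsf1, rose by 0.85 at GV3h (SE 0.24), 0.54 in adult oocytes (SE 0.14, 0.01 under ERCC scaling) and 0.82 in dcKO (SE 0.18, edgeR adjusted p = 0.000321). Srsf4, another SR protein, fell by 0.25 in adult oocytes (edgeR adjusted p = 0.0476) and 0.48 in dcKO, where it did not pass under ERCC scaling, and Srsf10, which represses splicing when dephosphorylated, fell by 0.44 in dcKO. The adult Srsf4 value was -0.24 without the control oocyte AM1758_4 (edgeR adjusted p = 0.0764).

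Within the SF3b complex, which holds the branch point adenosine in place, members were called in both directions. Sf3b1, the scaffold, and Sf3b2, its RNA-binding partner, were each lower in 5 of the 7 comparisons. Sf3b1 ran from 642 over 715 to 755 CPM in control and from 444 over 531 to 646 CPM in Dis3 cKO oocytes at GV3h, so that 1 knockout oocyte lay within the control range. It fell by 0.22 at GV (SE 0.07), 0.42 at GV3h (SE 0.07, edgeR adjusted p = 1.59e-06), 0.25 at MII, 0.30 in adult oocytes (SE 0.08) and 0.79 in dcKO (SE 0.12, edgeR adjusted p = 7.37e-07). The MII value reversed to 0.12 under ERCC scaling. Sf3b2 fell by 0.36 (SE 0.10), 0.46 (SE 0.10), 0.28, 0.25 (SE 0.07) and 0.88 (SE 0.11, edgeR adjusted p = 2.3e-08) in the same order, with the MII value at 0.05 under ERCC scaling. In p20 oocytes Sf3b2 ran from 107 over 133 to 151 CPM in controls and from 49.3 over 68.0 to 98.2 in dcKO, with no overlap.

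Sf3b6, the p14 subunit that touches the branch point, rose in 4 comparisons. It ran from 16.9 over 19.7 to 28.1 CPM in control and from 24.0 over 33.5 to 48.6 CPM in Dis3 cKO oocytes at GV3h, where 1 control oocyte made the overlap. The rise was 0.74 at GV3h (SE 0.18, edgeR adjusted p = 0.000866), 1.09 at MII (SE 0.19, edgeR adjusted p = 2.34e-06), 0.59 in adult oocytes (SE 0.22, edgeR adjusted p = 0.0489, 0.01 under ERCC scaling) and 0.86 in dcKO (SE 0.22, edgeR adjusted p = 0.00143). The dcKO value was 0.80 with counts summed per tag and did not pass there (edgeR adjusted p = 0.0781). Sf3b5, the smallest subunit, was close to its controls at GV (159 ± 26.9 against 140 ± 17.6 CPM) and rose by 1.60 at MII (SE 0.18, edgeR adjusted p = 2.94e-11). Sf3b4, a subunit that contacts the RNA upstream of the branch point, rose by 0.76 at MII and 0.78 in dcKO. Sf3b3, a large scaffold subunit, fell by 0.39 in adult oocytes (SE 0.06, edgeR adjusted p = 4.97e-05), from 243, 255 and 267 CPM to 176, 187 and 216 CPM, with no overlap.

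The Prpf genes that fell repeatedly were Prpf38b, a relative of the pre-catalytic factor Prpf38a, and the U1-associated Prpf39, each in 4 comparisons. Prpf38b ran from 101 over 117 to 157 CPM in control and from 48.8 over 86.7 to 120 CPM in Dis3 cKO eggs, and from 106 over 142 to 164 CPM in p20 control and from 43.3 over 69.2 to 118 CPM in dcKO oocytes. The ranges overlapped in both. It fell by 0.44 at GV (SE 0.12), 0.44 at GV3h, 0.51 at MII (SE 0.12, edgeR adjusted p = 0.000287, -0.11 under ERCC scaling, where it did not pass) and 0.94 in dcKO (SE 0.15, edgeR adjusted p = 3.13e-06). Prpf39 fell by 0.56 at GV (SE 0.15), 0.41 at GV3h (SE 0.15), 0.58 in Exosc10 cKO (SE 0.17, edgeR adjusted p = 0.0288) and 0.65 in dcKO (SE 0.17), and stood at 42.3 ± 14 CPM in Dis3 cKO eggs beside 41.7 ± 8.51 in controls (0.02, SE 0.15). In adult oocytes neither passed (-0.17 for Prpf38b and -0.42 for Prpf39), although both did under ERCC scaling (-0.74, edgeR adjusted p = 0.0024, and -1.06, edgeR adjusted p = 0.0132). The Prpf39 value rested on the control oocyte AM1758_4, at 96.5 CPM where the next highest control had 30.33, and was 0.02 without it (SE 0.12, edgeR adjusted p = 0.924). The ERCC-scaled Prpf39 value was not recomputed without that oocyte.

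Prpf18, which acts in the second splicing step, was the Prpf gene that rose at GV (0.42, SE 0.10, edgeR adjusted p = 0.00106, 0.16 under ERCC scaling). Its Dis3 effect was lower at GV3h than at GV by 0.55 (edgeR adjusted p = 0.0203, not past the threshold under ERCC scaling) and lower at MII than at GV by 0.39 (edgeR adjusted p = 0.048, 0.19 in the other direction under ERCC scaling). Prpf8, the U5 protein at the catalytic centre, fell by 0.27 in adult oocytes (edgeR adjusted p = 0.0244), and Prpf31, which bridges U4 and U6 to U5, rose there by 0.24, a value that was -0.30 under ERCC scaling. Without the control oocyte AM1758_4 the Prpf31 value was 0.21 and did not pass (edgeR adjusted p = 0.0582).

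The p20 oocytes set loss of both RNases beside loss of either. Prpf4, a U4/U6 protein, ran from 9.77 over 17.2 to 23.7 CPM in controls and from 26.1 over 45.2 to 80.0 CPM in dcKO. The groups did not overlap, and the rise was 1.47 (SE 0.20, edgeR adjusted p = 1.59e-07). It averaged 24.1 ± 4.20 CPM in Dis3 cKO (0.48, SE 0.20, edgeR adjusted p = 0.141) and 18.5 ± 5.56 in Exosc10 cKO. Prpf40b, a U1-associated factor, rose by 1.05 in dcKO (SE 0.22, edgeR adjusted p = 0.000124) from 7.40 ± 1.92 to 15.2 ± 4.07 CPM. Prpf38a, which activates the assembled spliceosome, fell by 0.65 in dcKO (SE 0.11, edgeR adjusted p = 5.94e-06) without overlap, and Prpf4b, a kinase of the tri-snRNP, fell by 0.49 (-0.53 under ERCC scaling, where it did not pass). Snrpb, which encodes the Sm proteins B and B', fell by 0.89 in Exosc10 cKO (SE 0.27, edgeR adjusted p = 0.0375), from 7.67 ± 1.75 to 4.15 ± 1.89 CPM. Under ERCC scaling these calls did not pass: at GV3h Srsf5, Srsf9, Prpf39, Prpf6, Sf3a2, Sf3a3 and Sf3b3, in dcKO Prpf4b, Prpf6, Sf3b5 and Srsf4, and in Exosc10 cKO all 3. With counts summed per tag, edgeR called 16 of the 20 dcKO members and 0 of the 3 Exosc10 cKO members (4 at an unadjusted p under 0.05).

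The dcKO oocytes were also tested against each single knockout. Against Dis3 cKO, 9 members were higher and 9 lower, with 26% and 25.5% of all genes (12 and 3 under ERCC scaling). Against Exosc10 cKO, 8 were higher and 13 lower, with 24.2% and 25% of all genes (5 and 8 under ERCC scaling). With counts summed per title tag, edgeR called fewer members against Exosc10 cKO. Prpf38b was lower by 0.98 and 0.84, and Sf3b1 by 0.73 and 0.65. Against Dis3 cKO, the Sf3b1 value was -0.44 under ERCC scaling, and neither Sf3b1 nor Sf3b2 passed there. Prpf4 was higher by 0.99 and 1.39, Prpf40b by 1.2 and 1.04, Srsf11 by 0.67 and 0.94 and Sf3b6 by 0.70 and 0.81. Snrpb was higher in dcKO than in Exosc10 cKO by 1.07 (SE 0.27, edgeR adjusted p = 0.0015). All these comparisons use the same 8 dcKO libraries.

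**Figure D3:**
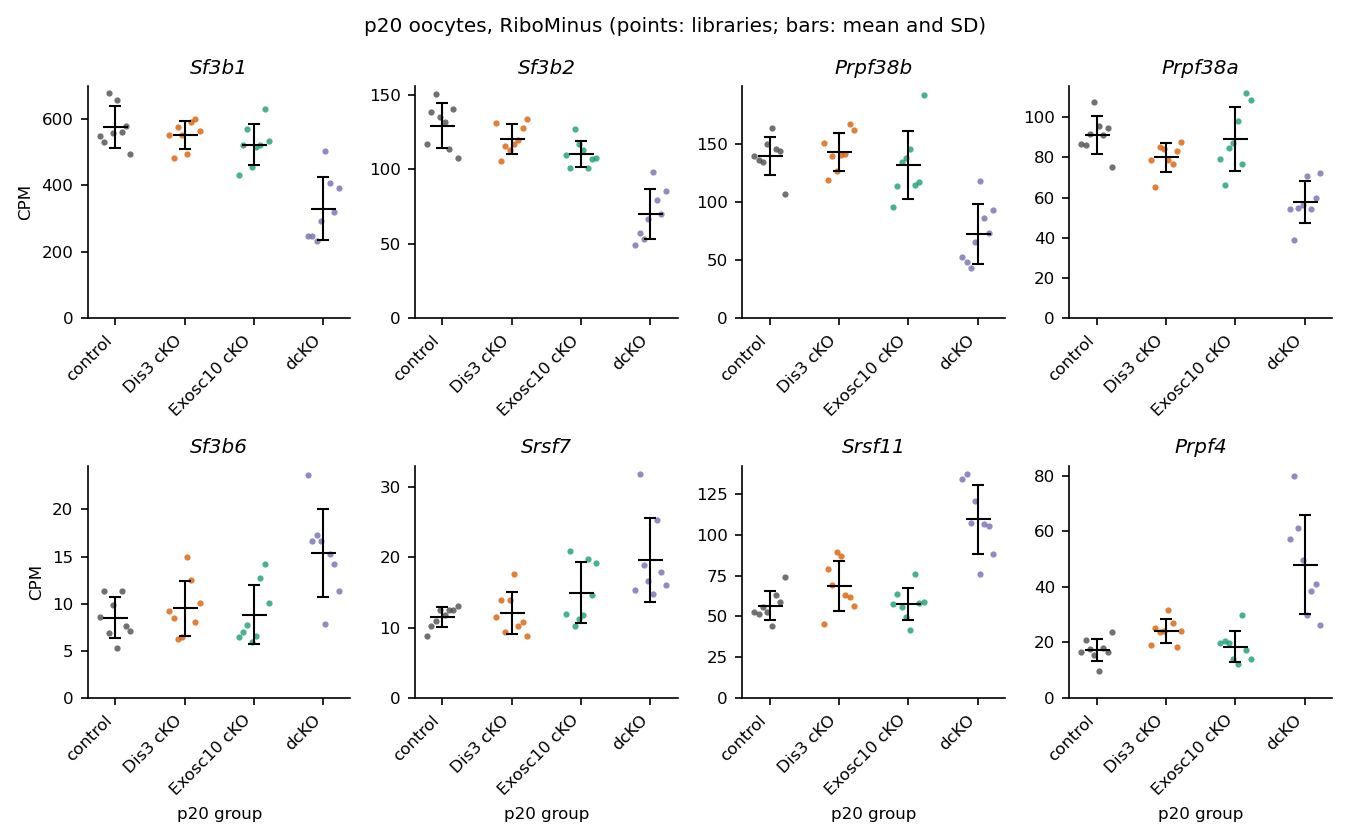
CPM of 8 members in every p20 library of the 4 genotypes, with each point 1 oocyte and bars for the mean and SD. Sf3b1, Sf3b2, Prpf38b and Prpf38a lie lower, and Prpf4, Srsf11 and Sf3b6 higher, in dcKO than in the other genotypes by their means, and Srsf7 in dcKO (19.6 ± 5.99 CPM) overlaps Exosc10 cKO (15 ± 4.37).

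In control eggs 17 members were higher and 15 lower than in control GV oocytes, with 22.7% and 35.8% of all genes. Under ERCC scaling, where the median of all genes stood at -2.12, all 44 tested members were lower and 0 higher. Snrpd2, the Sm ring protein D2, had the largest fall. It ran from 33.5 over 43.1 to 51.3 CPM in control GV oocytes and from 0 over 0.453 to 1.61 CPM in control eggs, a fall of 6.18 (SE 0.48, edgeR adjusted p = 1.56e-18). Control GV3h oocytes averaged 26.0 ± 3.91 CPM. The other members that fell most in control eggs were Snrpb (by 2.96, SE 0.52), Prpf40b (by 2.13, SE 0.60), Prpf31 (by 2.0, SE 0.21), the U1 protein gene Snrpc (by 1.99, SE 0.34) and Sf3b5 (by 1.80, SE 0.20). Sf3b6 fell by 0.99 (SE 0.21).

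Relative to other genes, the members that rose most in control eggs were the Sm genes Snrpg (1.49, SE 0.20) and Snrpe (1.19), Prpf18 (1.21, SE 0.11), the tri-snRNP gene Prpf6 (1.19) and the U2 gene Snrpb2 (1.15), all of which were below 0 under ERCC scaling, at -0.35, -0.65, -0.64, -0.65 and -0.70. Snrpg ran from 16.0 over 26.4 to 29.3 CPM in control GV oocytes and from 65.5 over 70.8 to 76.8 CPM in eggs. Sf3b1, which fell without Dis3, was higher by 1.04 in control eggs than at GV, and -0.82 under ERCC scaling. The same comparison within Dis3 cKO gave 23 higher and 14 lower, with 24.8% and 38.5% of all genes (0 and 33 under ERCC scaling). There Snrpd2 fell by 4.01 (SE 0.30), Snrpb by 2.24, Snrpc by 1.93, Prpf31 by 1.71 and Srsf1 by 1.08 (SE 0.19, edgeR adjusted p = 8.98e-07), and Snrpg and Srsf7 were higher by 1.47 and 1.30 (0.13 and 0.02 under ERCC scaling, where neither passed).

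After culture for 3 h, 3 members were higher and 0 lower in controls, with 1.14% and 1.56% of all genes. They were Sf3b3 (0.53, SE 0.15, edgeR adjusted p = 0.0344), Prpf18 (0.41) and the U2 gene Sf3a1 (0.40), and under ERCC scaling edgeR called 0 members (8 at an unadjusted p under 0.05). The count of called members also fell without the filter. It grew with title numbers 1 to 8 and, most of all, with only the compared groups.

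**Figure D4:**
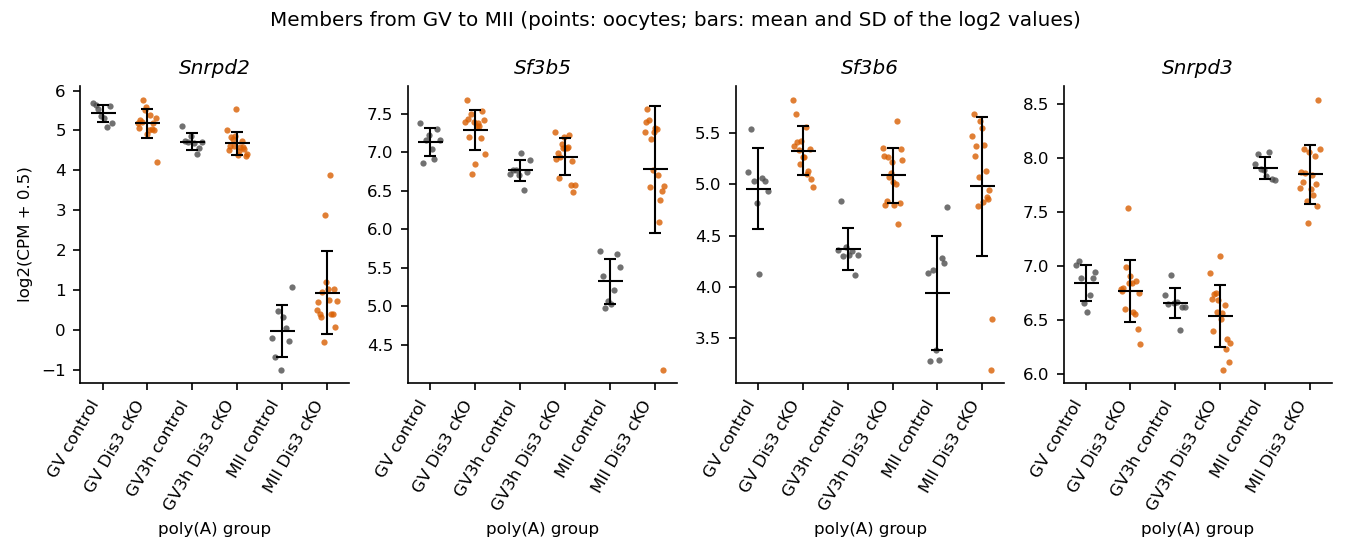
Levels of Snrpd2, Sf3b5, Sf3b6 and Snrpd3 in every poly(A) library on a log2 scale of CPM, by stage and genotype, with each point 1 oocyte or egg and bars for the mean and SD of the log2 values. Control eggs are low in Snrpd2, Sf3b5 and Sf3b6, and most Dis3 cKO eggs lie above them for Sf3b5 and Sf3b6.

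Among members called at MII, the largest Dis3 effects were those on Snrpd2, Sf3b5 and Sf3b6. Sf3b5 ran from 31.0 over 39.0 to 52.0 CPM in control and from 17.6 over 126 to 189 CPM in Dis3 cKO eggs, with 15 of 16 above every control. Sf3b6 ran from 9.2 over 17.2 to 26.9 CPM in control and from 8.66 over 33.8 to 50.8 CPM in knockout eggs, with the same egg, number 15, the lowest for both genes. As a library, egg 15 stood apart, with 14.4 gene counts per ERCC count (group median 53.3) and the fewest genes detected in its group (16762). Snrpd2 ran from 0.312 over 1.14 to 14.2 CPM in knockout eggs and was higher by 1.95 than in controls (SE 0.44, edgeR adjusted p = 0.000206), but 2 eggs, numbers 7 and 11, held 6.82 and 14.2 CPM. Those 2 eggs also had 19753 and 19563 genes detected, where the group median was 18350. They had 80.98 and 73.7 gene counts per ERCC count (group median 53.3). Without them the Snrpd2 value was 0.83 (edgeR adjusted p = 0.0127). Snrpa, a U1 protein gene, rose by 0.82, Snrpn, a near-identical paralogue of Snrpb between which reads may be split, rose by 0.76 (SE 0.18, edgeR adjusted p = 0.000612) after falling by 0.53 at GV3h, and the SR gene Srsf6 rose by 0.55.

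The Dis3 effect at MII exceeded that at GV in 6 members and was lower in 1, where 9.28% and 3.88% of all genes were called (26 and 0 under ERCC scaling). The 6 were Snrpd2 (2.18, edgeR adjusted p = 0.00278), Sf3b5 (1.43, edgeR adjusted p = 1.31e-05), Snrpn (1.08, edgeR adjusted p = 0.00199), Srsf6 (0.76, edgeR adjusted p = 0.0237), Sf3b6 (0.74, edgeR adjusted p = 0.0404) and Sf3a3, the U2 subunit that joins the Sf3a heterotrimer (0.60, edgeR adjusted p = 0.00286). Without eggs 7 and 11, 5 were higher and 0 lower: Snrpd2 stood at 1.06 (edgeR adjusted p = 0.026), Sf3b6 at 0.69 (edgeR adjusted p = 0.0648) and Prpf18 at -0.35 (edgeR adjusted p = 0.0836). The Sf3b6 difference was also 0.71 without GV control oocyte 1 (edgeR adjusted p = 0.0597) and did not pass with no filter or with only the compared groups, where Srsf6 and Prpf18 did not pass either. At GV3h against GV, 1 member was higher and 1 lower, where 1.37% and 0.667% of all genes were called (0 and 0 under ERCC scaling). These were Srsf11 and Prpf18.

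**Figure D5:**
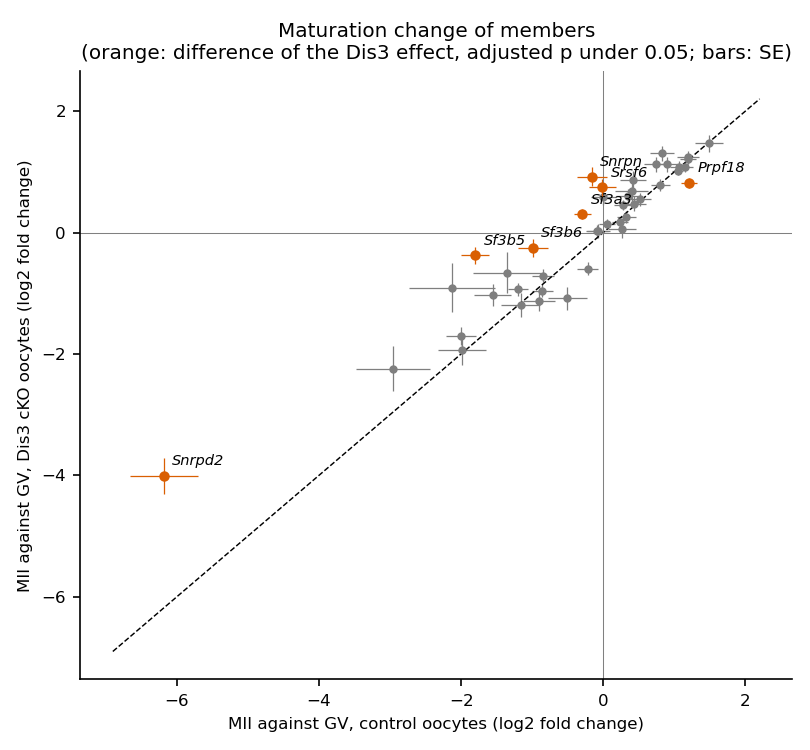
Log2 change from GV to MII of the members in Dis3 cKO (vertical axis) against controls (horizontal axis), with bars for the SE, the diagonal of equal change, and orange for the 7 members whose difference passed. Snrpd2 lies at -6.18 in controls and -4.01 in Dis3 cKO, and Sf3b5 and Sf3b6 also lie above the diagonal.

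Adult and p20 control RiboMinus oocytes differed in 18 members, 15 higher and 3 lower in adults, with 8.69% and 10.4% of all genes. Under ERCC scaling, where the median of all genes stood at -1.69, 0 were higher and 44 lower. Srsf10 (0.53), the U2 gene Snrpa1 (0.50), Snrpa (0.50), Prpf38b (0.49), Srsf4 (0.47) and Srsf5 (0.39) were higher, and all 6 reversed under ERCC scaling, to -1.16, -1.19, -1.22, -1.19, -1.20 and -1.32. Snrpb was lower by 0.95 (SE 0.28, edgeR adjusted p = 0.0129), Prpf40b by 0.68 and Srsf11 by 0.57. With counts summed per tag edgeR called 0 members (17 at an unadjusted p under 0.05), and the stage of growth and the making of the libraries cannot be told apart here.

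Other genes of the splicing pathway were read from lists of snRNP, catalytic, regulatory and assembly factors that the member rule does not take. Calls are given as higher and lower at GV, GV3h, MII, adult GV and dcKO in that order, to be read against the shares of all genes called there: 13.6% and 8.33%, 22.9% and 15.7%, 27.3% and 14.8%, 15.7% and 12.4%, and 26.6% and 27.1%. Of 22 further U snRNP proteins, 1 and 2, 0 and 9, 6 and 2, 2 and 5, and 3 and 12 were called. Of 22 proteins of the Prp19 complex and the catalytic spliceosome, 0 and 1, 0 and 8, 3 and 3, 5 and 3, and 1 and 11 were called. Of 11 minor spliceosome proteins, 0 and 1, 1 and 1, 3 and 1, 2 and 1, and 0 and 5 were called. Of 21 SR kinases and SR-related proteins the calls were 2 and 2, 4 and 4, 4 and 6, 3 and 3, and 5 and 11, and of 25 hnRNP proteins 6 and 0, 6 and 3, 6 and 2, 7 and 1, and 3 and 8. The LSm and SMN assembly factors (21 tested in poly(A), 19 in adult and 20 in p20 oocytes) gave 1 and 0, 2 and 0, 10 and 0, 2 and 2, and 6 and 2, and 10 exon junction complex proteins 1 and 2, 0 and 3, 3 and 2, 2 and 1, and 2 and 4. In dcKO the median log2 changes of these 7 lists, in the order given, were -0.26, -0.35, -0.49, -0.27, -0.06, 0.23 and -0.05, beside -0.01 for all genes. In the single p20 knockouts each list had at most 2 calls in a direction.

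Several of these genes moved in most comparisons. Srrm2, a very large SR-related protein of nuclear speckles, fell by 0.60 at GV, 0.76 at GV3h, 0.86 at MII, 0.52 in adult oocytes and 0.54 in dcKO. Hnrnpr, an RNA-binding hnRNP, rose by 0.72, 0.83, 0.60, 0.70 and 0.77 in the same order, and by 0.82 in Exosc10 cKO. Tra2b, an SR-like splicing activator, rose by 0.64, 0.47, 0.30, 0.42 and 0.50, with the adult value at -0.11 under ERCC scaling. Clk4, a kinase of SR proteins, rose by 1.22 at GV3h, 0.72 at MII, 0.44 in adult oocytes (-0.12 under ERCC scaling), 0.68 in p20 Dis3 cKO and 0.52 in dcKO. Snw1, a catalytic-stage factor, fell by 0.41, 0.46 and 0.70 at GV, GV3h and MII and by 0.98 in dcKO. Puf60, which helps U2 bind, fell by 0.52 at GV, 0.61 at GV3h and 0.95 in adult oocytes but rose by 0.79 at MII.

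CUT&Tag marks the DNA around an antibody's target, here in bulk oocytes in triplicate (3 libraries a group), and the authors called peaks for each library. The RNA polymerase II libraries are titled pols2s5, a name read here as a phosphorylated form and not as total polymerase. Of the 39 members with a start site in the RefSeq table, 0, 2 and 2 had an RNA polymerase II peak within 1000 bases in the 3 adult control libraries, 8, 8 and 5 in the p20 controls, and 10, 2 and 13 in adult Dis3 cKO. Over all genes the shares ran from 2.904% to 5.757%, from 9.461% to 11.47% and from 4.888% to 15.28%, with lists of 19697 to 122606 peaks. As means over the 3 libraries, 3.419%, 17.95% and 21.37% of members had a peak, beside 4.32%, 10.44% and 10.36% of genes. Prpf40b and Snrpd3, an Sm ring gene, had a peak in all 3 p20 control libraries. Prpf38a, Prpf40b, Snrpd2, Snrpn, Srsf4 and Srsf5 had one in at least 2 of the 3 adult Dis3 cKO libraries. The repressive mark H3K27me3 was rare at members: 0, 0 and 0 in adult controls, 1, 0 and 0 in p20 controls, 0, 1 and 1 in adult Dis3 cKO and 0, 2 and 3 in dcKO, where 18.25% to 29.99% of all genes had a peak. No test was made of these counts.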

How the data were processed

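The authors deposited whole-number read counts per gene for each oocyte, used here as deposited, and for CUT&Tag peak lists per library whose columns 4 and 5 hold the authors' total and maximum signal. Per the submitters' processing notes, the tools were cutadapt 2.5, FastQC 0.11.8, STAR 2.7.2a, SAMtools 1.9, HTSeq 0.9.1, R 3.5.1, DESeq2 1.24.0 and SEACR, with build mm10. Their settings and whether counting used strand are not given in the sources used here. Per the series' design text, CUT&Tag reads were drawn at random to the same depth for each library, duplicates included. Poly(A) lysates received ERCC RNAs and RiboMinus libraries were primed with random hexamers, per the labels. The IgG libraries were not used here, and 1 GV Dis3 cKO oocyte in the title numbering was not analysed here.

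Genes were filtered (filterByExpr), scaled by TMM and tested with edgeR 4.0.16 quasi-likelihood F tests in R 4.3.3, adjusted by Benjamini-Hochberg at 0.05 over 17389 genes (6 poly(A) groups in 1 fit), 15334 (adult RiboMinus), 15882 (p20, 4 groups) or 17267 (6 RiboMinus groups, adult against p20). The SE is the absolute log2 change over the root of F. CPM used TMM-scaled library sizes, within the poly(A) and within the RiboMinus libraries, and levels were not compared between genes or assays. The tests were tried on simulated counts first. Named genes were the most changed called members per comparison and those called in one direction in at least 4 of the 7 knockout comparisons. Counts cover all members, but 1 is not reported here by name or value. The members, lists and tests were chosen with earlier results of these data known. Alternatives were ERCC scaling, DESeq2 1.42.0, no filter, only the compared groups, title numbers 1 to 8, a replicate block, sums per title tag, and oocytes left out. No 2 libraries matched within sampling noise. Annotated genes overlap 15 members, of those named Prpf31, Prpf38a, Prpf39, Prpf40b, Prpf4b, Sf3a3, Sf3b3, Sf3b4, Snrpa, Snrpd3, Snrpn, Srsf4 and Srsf9, so their counts are less certain. Promoter windows and start sites came from RefSeq (GRCm38.p6), matched by symbol.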

Additional observations from a re-analysis of the deposited data

Results flagged for a closer look

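Single libraries stood apart from the rest of their group in 8 of the 135 member groups tested, where chance gives about 1 in 20. In RiboMinus oocytes, Prpf39 was 96.5 CPM in the adult control AM1758_4 (next highest 30.33), Prpf4 was 29.77 CPM in Exosc10 cKO oocyte 2_2 (next highest 20.56), Snrpb was 3.804 CPM in p20 control 2_1 (next lowest 7.026), and Srsf9 was 17.38 CPM in p20 control 2_4 (next highest 11.49) and 27.46 CPM in dcKO oocyte 1_2 (next highest 20.08). In poly(A) libraries, Prpf40b was 3.416 CPM in control egg 6 (next highest 1.614), Srsf7 was 115.8 CPM in control egg 8 (next highest 77.55) and Sf3b6 was 28.06 CPM in GV3h control 2 (next highest 20.38).

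The Dis3 effect differed between stages or ages in the edgeR test of the difference for these members. From GV to GV3h it moved by -0.55 for Prpf18 (edgeR adjusted p = 0.0203) and 0.81 for Srsf11 (edgeR adjusted p = 0.0426), and neither passed under ERCC scaling, nor Srsf11 with a replicate block (edgeR adjusted p = 0.0677). From GV to MII it moved by -0.39 for Prpf18 (edgeR adjusted p = 0.048), 0.60 for Sf3a3 (0.00286), 1.43 for Sf3b5 (1.31e-05), 0.74 for Sf3b6 (0.0404), 2.18 for Snrpd2 (0.00278), 1.08 for Snrpn (0.00199) and 0.76 for Srsf6 (0.0237). From p20 to adult it was higher by 1.77 for Srsf1 (edgeR adjusted p = 0.000665).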

How the results depend on the processing

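Over 119 results on single members, 722 of 822 alternative values kept direction and call, 76 kept the direction without passing, and 24 reversed, all under ERCC scaling. Counts of called members moved by over 1.5 times under ERCC scaling at GV3h (16 to 9), MII (16 to 26), GV3h against GV in controls (3 to 0), the GV3h and MII interactions (2 to 0 and 7 to 26), adult oocytes (12 to 20), p20 Dis3 cKO (0 to 1), Exosc10 cKO (3 to 0), dcKO against Exosc10 cKO (21 to 13) and adult against p20 controls (18 to 44). Without the filter the control GV3h count was 0 and the interactions 1 and 4. With only the compared groups these were 13, 4 and 4, and p20 Dis3 cKO gave 3. Title numbers 1 to 8 gave 6 for control GV3h and 1 for the GV3h interaction. DESeq2 gave 1 for p20 Dis3 cKO and 5 for Exosc10 cKO. Sums per title tag gave 0 in adult oocytes, Exosc10 cKO, adult against p20 and its interaction, and 11 for dcKO against Exosc10 cKO. Title numbers do not pair the oocytes (12 of 142 same-number pairs correlated above 0.1 in poly(A), 4 of 48 at p20). Within p20 groups the median correlation was -0.081 for oocytes sharing a title tag and -0.187 for the others. Whether oocytes of a tag are more alike was not tested. A replicate block gave 1 for the GV3h interaction and changed no other count by over 1.5 times. It left Srsf11 in the GV3h interaction at 0.79 (edgeR adjusted p = 0.0677).

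Reversed values under ERCC scaling among the members chosen by the naming rule, whose cause was not tested, were 0.047 for Sf3b2 and 0.12 for Sf3b1 at MII, -0.14 for Snrpc in adult oocytes and 0.19 for Prpf18 in the MII interaction. In adult oocytes Prpf31 (-0.30) and Snrpa (-0.24), called but outside the naming rule, also reversed. In control MII against GV they were Snrpg -0.35, Prpf18 -0.64, Prpf6 -0.65, Snrpe -0.65, Snrpb2 -0.70, Prpf38b -1.53, Sf3b1 -0.82 and Srsf7 -1.05. In Dis3 cKO MII against GV they were Prpf6 -0.0052, Srsf4 -0.11, Prpf38b -0.92, Prpf39 -0.66, Sf3b1 -0.22 and Srsf5 -0.68. In adult against p20 controls they were Srsf10 -1.16, Snrpa1 -1.19, Snrpa -1.22, Prpf38b -1.19, Srsf4 -1.20 and Srsf5 -1.32. Leaving out oocytes moved no count by over 1.5 times (MII 14 to 18, MII interaction 5 to 7, adult 9), and the omissions of eggs 7 and 11 together and of adult control AM1758_4 were chosen after seeing the data. A test without the filter, with only the compared groups, with title numbers 1 to 8 or with the block ended single calls near the threshold, among them Srsf5 at MII.

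Mean members per library with a Pol II peak were 1.333 (adult control), 8.333 (adult Dis3 cKO) and 7 (p20 control) within 1000 bases, 5.667, 21 and 18.67 within 5000 bases, and 2.333 in adult Dis3 cKO and 4 in p20 control with peaks above the median signal. Within 250 bases they were 0.6667 in adult control, 3.667 in adult Dis3 cKO and 5.333 in p20 control. Adult Dis3 cKO thus lay below p20 control within 250 bases and with peaks above the median signal. Over all genes, the shares with a peak within 250 bases ran from 2.853% to 7.992% in adult Dis3 cKO and from 6.077% to 7.118% in p20 control. With peaks above the median signal they were 4.528% to 6.317% and 6.397% to 7.066%. Within 5000 bases they were 15.39% to 40.65% and 23.57% to 28.73%, and 8.873% to 15.7% in adult control. For H3K27me3, 5000 bases gave 2.333 in adult control, 2.333 in adult Dis3 cKO, 3.667 in p20 control and 8.667 in dcKO, and 250 bases gave 0 in adult Dis3 cKO. Of all genes, 29.03% to 52.57% had an H3K27me3 peak within 5000 bases over these libraries, and 43.38% to 52.57% in dcKO. In dcKO the H3K27me3 mean of 1.667 within 1000 bases was 0.3333 within 250 bases. It was also 0.3333 there with peaks above the median signal. Members with few counts per library, such as Snrpd2, Snrpb and Prpf40b in eggs, have wide errors.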
